A study of Mus musculus with 16 samples.

Results

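The loci of the T cell and B cell antigen receptors held 150 of the 75363 open chromatin regions found in mouse regulatory T cells (Treg cells, which restrain other immune cells), or 0.199% of them. The members were all regions that overlap 4 fixed windows of genome build mm9, so the level or shape of a region played no part in the rule, although the windows were set with earlier results of these data known. These windows were chr14:53000001-54900000 for the T cell receptor alpha and delta genes (38 regions), chr6:40800001-41520000 for T cell receptor beta (56 regions), chr12:114450001-117300000 for the immunoglobulin (Ig) heavy chain (50 regions) and chr6:67500001-70700000 for the Ig kappa light chain (6 regions). The members named by symbol are the constant genes Trac and Trdc in the first window, Trbc1 and Trbc2 in the second, Ighm in the third and Igkc in the fourth.

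CD4+CD25+ Treg cells were sorted from C57BL/6 mice and profiled by ATAC-seq, an assay whose transposase inserts into accessible DNA. The 8 mice gave 16 samples, 1 from a tissue and 1 from the spleen of each, and these form 8 groups of 2. The tissue groups were fat from around the epididymis (VAT), injured muscle of the hindlimb, and colonic lamina propria in the groups called Nrp1p and Nrp1n, and the other 4 groups were the spleens of the same mice (Spl_wVAT, Spl_wMus, Spl_wCol_Nrp1p and Spl_wCol_Nrp1n). No genetic change and no treatment other than the muscle injury is named in the labels. The list gives positions only, in 1 table for the whole series. It gives neither a level per region nor a column per sample, so nothing below is a difference between tissues or mice, and the depth behind each region is unknown. A site open in a few cells of another type and a site open in all Treg cells cannot be told apart in it. The label of the cells could not be checked against marker genes, because no gene annotation of mm9 was used.

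An antigen receptor gene is assembled from separate pieces. In developing lymphocytes the RAG enzyme joins a variable (V) segment to a joining (J) segment, in some chains with a diversity (D) segment between them, usually removing the DNA in between, and the joined exon is spliced to a constant (C) gene. The alpha and beta chains form the receptor of conventional T cells, Treg cells included, and the delta chain belongs to the gamma-delta T cell receptor. The heavy and kappa chains form antibodies and the B cell receptor, and their full assembly takes place in B cells. Enhancers that drive these loci are known near the C and J genes in all 4 of them.

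Each locus therefore has a constant end and a long variable part. In the RefSeq gene table of assembly GRCm38.p6, another build that was used only for the names and the order of genes, all 136 V segments of the alpha and delta locus lay at lower positions than Trac, which encodes the alpha constant region. Of these, 135 lay below Trdc, the delta constant gene, which sits inside the alpha locus. At the beta locus 34 of 35 V segments lay below Trbc1 and Trbc2, the beta constant genes, and 1, Trbv31, lay above them. All 162 kappa V segments lay below Igkc, the kappa constant gene, and all 183 heavy chain V segments lay above Ighm, which encodes the constant region of IgM. The constant end was taken as the 300 kb at the matching edge of each window, and the positions of the genes on mm9 were not looked up. Regions were not assigned to single genes or segments.

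The T cell receptor loci were more densely covered with open regions than the Ig loci. The T cell receptor windows held 94 regions in 2.62 Mb, or 35.9 per Mb, and the Ig windows 56 regions in 6.05 Mb, or 9.26 per Mb, a ratio of 3.88. The T cell receptor loci thus held 62.7% of the members (94 of 150, exact binomial 95% interval 54.4 to 70.4%) on 30.2% of the length. The whole list averaged 29.4 regions per Mb on chromosomes 1 to 19 and X, so the T cell receptor windows stood at 1.22 times that mean and the Ig windows at 0.315 times. All intervals given here, exact binomial for shares and exact Poisson for densities, cover counting error only and take regions as independent, although regions cluster. With 2 loci of each kind and no value per sample, the difference was not tested.

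That contrast came from beta and kappa. The beta window had 77.8 regions per Mb (95% interval 58.8 to 101 per Mb) and the kappa window 1.88 (0.688 to 4.08), the highest and the lowest of the 4. The alpha and delta window had 20 regions per Mb (14.2 to 27.5) and the heavy chain window 17.5 (13.0 to 23.1), a ratio of 1.14 with overlapping intervals. The difference between these 2 loci, one of T cells and one of B cells, was within counting error.

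**Figure D1:**
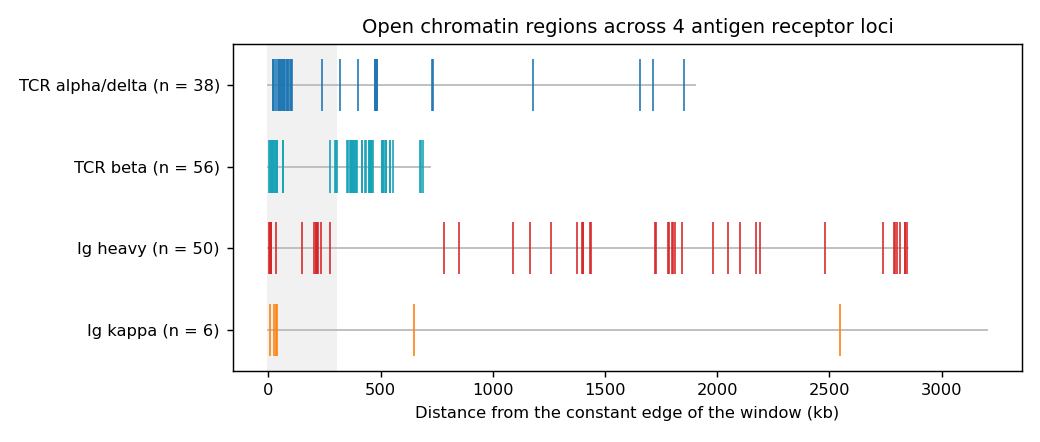
Position of each open region (vertical line) by distance in kb from the constant edge of its window (horizontal axis) for the 4 loci; grey lines show the window lengths and shading the 300 kb constant end. The alpha and delta regions crowd beside the constant edge, the beta regions form 2 blocks, the heavy chain regions are scattered, and kappa has 6.

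Against windows of the same length laid end to end along chromosomes 1 to 19 and X, the loci took very different places. The beta locus was denser than 89.7% of 3550 windows of 0.72 Mb, whose median was 16.7 regions per Mb. The alpha and delta locus was denser than 44.9% of 1338 windows of 1.9 Mb (median 22.6 per Mb), and the heavy chain locus denser than 40.1% of 890 windows of 2.85 Mb (median 24.6 per Mb). The kappa locus was denser than 9.99% of 791 windows of 3.2 Mb, whose median was 25.3 regions per Mb. The alpha, delta and heavy chain loci were thus near the middle of the genome's range, and kappa was near its sparse end. These shares describe the list and are no test.

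**Figure D2:**
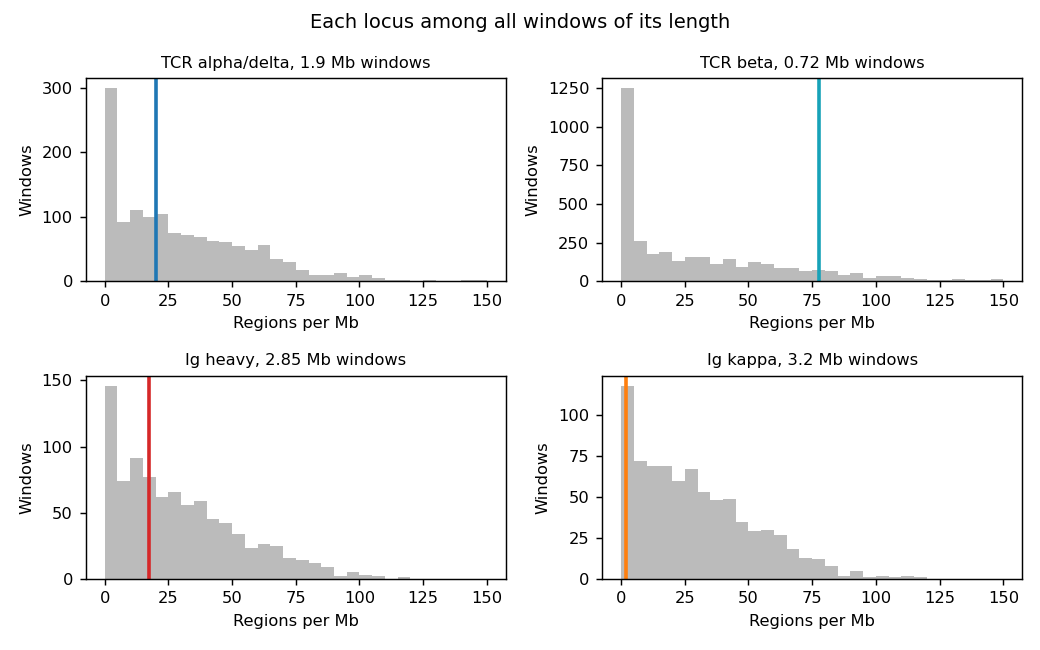
Number of windows (vertical axis) by regions per Mb (horizontal axis, values above 150 drawn at 150) for all windows of each locus's length, with the locus as a coloured line. The beta line, at 77.8, lies right of most windows, and the kappa line, at 1.88, stands in the leftmost column.

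The sequence beside the loci was not empty. In the 500 kb outside each window, the kappa locus had 33 regions on its constant side and 32 on the other side, against 6 in the 3.2 Mb between them. The alpha and delta locus had 50 on its constant side and 45 on its far side, and the heavy chain locus 69 and 29. The beta locus went the other way, with 12 regions in the 500 kb on its constant side and 16 on its far side, so it was a dense stretch in sparser surroundings.

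Bins of 100 kb, counted from the constant edge, show how much of each locus was without regions. No region was called in 29 of 32 kappa bins (90.6%, exact binomial 95% interval 75.0 to 98.0%), where 53.3% of the list's 25619 bins were empty. At the alpha and delta locus 9 of 19 bins were empty (47.4%, 24.4 to 71.1%) and at the heavy chain locus 11 of 28 (39.3%, 21.5 to 59.4%), and both intervals include the share of the list. At the beta locus 1 of 7 bins was empty (14.3%, 0.361 to 57.9%), and this interval also includes the share of the list. Bins with 10 or more regions made up 10.4% of the list's bins. There were 3 of them at the beta locus, 1 at the alpha and delta locus and 0 at the Ig loci.

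**Figure D3:**
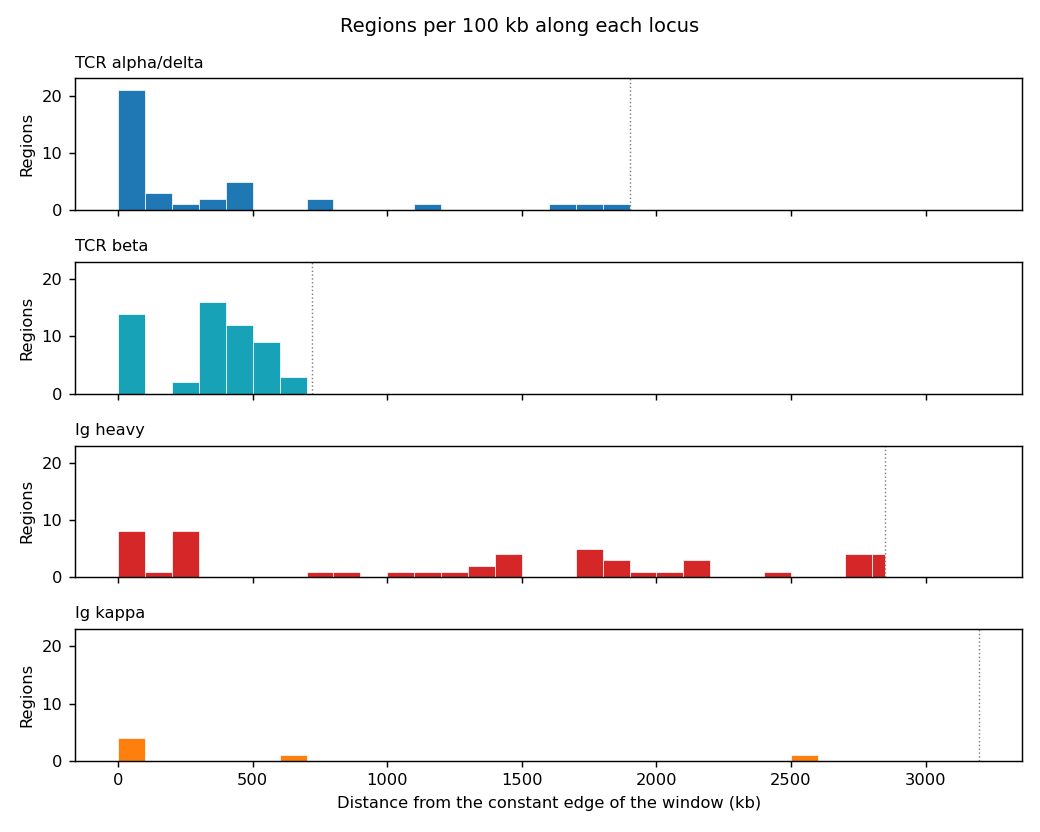
Regions per 100 kb bin (vertical axis) by distance in kb from the constant edge (horizontal axis) for the 4 loci; dotted lines mark the far edges, and a last shorter bin is drawn at its own width. The first alpha and delta bin holds 21 regions, the beta bins reach 16, no Ig bin exceeds 8, and 29 of 32 kappa bins are empty.

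The constant ends of 3 loci held more regions than their share of length, at kappa on 6 regions in all. At the alpha and delta locus, 25 of 38 regions (65.8%, 95% interval 48.6 to 80.4%) lay in the constant end, which is 15.8% of the window. At the kappa locus it was 4 of 6 (66.7%, 22.3 to 95.7%) on 9.38% of the length, which became 0 of 2 when 50 kb was trimmed from both window edges. At the heavy chain locus it was 17 of 50 (34.0%, 21.2 to 48.8%) on 10.5%. At the beta locus the constant end held 16 of 56 regions (28.6%, 17.3 to 42.2%) on 41.7% of the length, so at this length there was no excess. The beta value depends on the length chosen: with 100 kb, the end held 14 regions (25.0%) on 13.9% of the length.

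As densities, the constant ends had 83.3 regions per Mb at the alpha and delta locus, 56.7 at the heavy chain locus, 53.3 at the beta locus and 13.3 at the kappa locus. The rest of each window had 8.13, 12.9, 95.2 and 0.690 per Mb in the same order. The constant end was thus 10.3 times as dense as the rest at the alpha and delta locus, 4.38 times at the heavy chain locus and 0.56 times at the beta locus, and no ratio is given for kappa, whose rest held 2 regions. The 500 kb beyond the constant edge held 50 regions at alpha and delta, 69 at the heavy chain and 33 at kappa. The 300 kb ends there held 25, 17 and 4, so the sequence beyond them was denser per Mb. Only at beta, with 16 against 12 beyond, was the end the denser. A peak at the constant genes themselves is therefore not shown by these ratios. Among the list's 8533 windows of 300 kb, the alpha and delta end was denser than 88.4%, the heavy chain end than 78.4%, the beta end than 76.7% and the kappa end than 51.5%. Among windows of its own length, the rest was denser than 29.9%, 30.8%, 92.7% and 7.55% in the same order. At this length the intervals of the heavy chain end (33.0 to 90.7 per Mb) and the beta end (30.5 to 86.6) overlapped over most of their range, although the heavy chain is a B cell gene. With ends of 100 kb the values lay further apart. They were 80.0 per Mb at the heavy chain (34.5 to 158) and 140 at beta (76.5 to 235), with intervals that still overlapped.

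**Figure D4:**
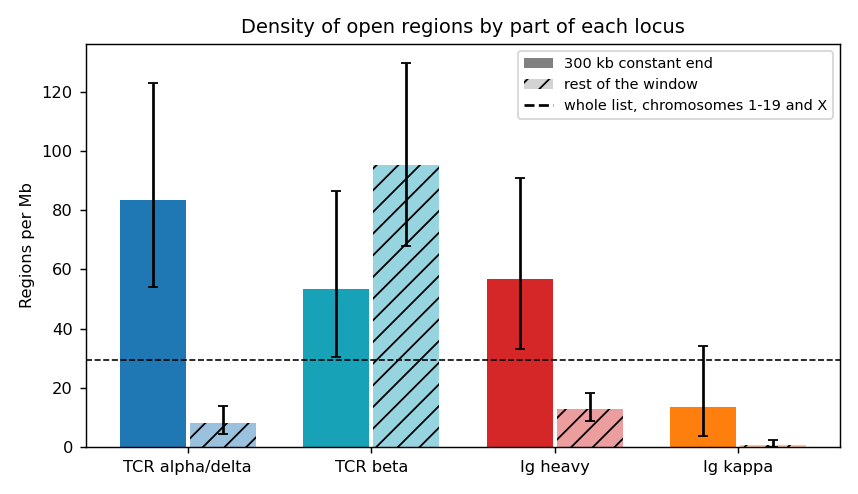
Regions per Mb (vertical axis) in the 300 kb constant end (solid bars) and in the rest of the window (hatched bars) of each locus; error bars are exact Poisson 95% intervals and the dashed line is the list's mean of 29.4. Solid bars exceed hatched bars at 3 loci, and at the beta locus the rest, at 95.2, is the denser part.

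At the opposite edge, the outermost 300 kb held 3 regions at the alpha and delta locus, 22 at the beta locus, 8 at the heavy chain locus and 0 at the kappa locus. A count of 0 in 300 kb allows up to 12.3 regions per Mb (exact Poisson 95% limit). With 300 kb ends, the pooled ratio of T cell receptor to Ig loci was larger in the variable parts than at the constant ends. The rest of the T cell receptor windows had 4.09 times the density of the rest of the Ig windows (26.2 against 6.42 per Mb), and their constant ends 1.95 times (68.3 against 35.0 per Mb). The former ratio came from beta, with 40 of the 53 T cell receptor regions outside the constant ends, and from kappa, with 2 regions. The variable part of the alpha and delta locus, at 8.13 per Mb, was below that of the heavy chain, at 12.9.

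The order of the loci by V segments was not their order by regions in the variable part. For every 10 V segments in the gene table, pseudogenes included, the part of the window outside the constant end held 11.4 regions at the beta locus, 1.8 at the heavy chain locus, 0.956 at the alpha and delta locus and 0.123 at the kappa locus. The beta locus, with the fewest V segments, had 40 regions there, and the kappa locus, with 162, had 2. These ratios set segments of one assembly beside regions of another and do not place any region on a segment. The V segments were counted over the whole locus, including any that lie in the constant end, such as Trbv31.

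At the alpha and delta locus the open regions formed 1 large run beside the constant edge. Linked where the gap was under 12.5 kb, 24 regions lay in 84.0 kb (chr14:54795325-54879322), with a median gap of 2599 bp. Of the 14351 such runs of 2 or more regions in the list, 128 (0.892%) had 24 or more. The 100 kb beside the edge held 21 regions, or 210 per Mb (95% interval 130 to 321), more than 99.0% of the list's 100 kb bins and 22.2 times the density of the rest of this window. In gene order this end holds Trdc, the J segments of the alpha chain and Trac, and the next protein-coding gene beyond is Dad1. Whether all regions of the run lie among the receptor genes, or some lie beyond Trac, was not examined.

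The 10 regions of that bin nearest the edge began with a pair 217 bp apart, chr14:54879207-54879322 and chr14:54878824-54878989. Further in came chr14:54873608-54873799, chr14:54863999-54864165, chr14:54858828-54859015 and chr14:54853030-54853247. The next 4 were chr14:54850798-54851008, chr14:54847154-54847481, chr14:54844889-54845095 and chr14:54842061-54842353. The second of these 4 was the widest region of the locus, at 328 bp, and the last, at 293 bp, was the second widest. The third widest, chr14:54824072-54824355 (284 bp), lay 75.8 kb from the edge, so all 3 were in the same run.

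Narrow regions were part of that run as well. Of its 24 regions, 7 were 150 bp wide or narrower, with 102 bp as the lowest width. Over the whole locus it was 10 of 38 (26.3%), against 15.4% of the list, 14.3% at the beta locus (8 of 56), 6.0% at the heavy chain locus (3 of 50) and 0 of 6 at the kappa locus. Regions of exactly 150 bp were among those counted at the alpha and delta, beta and heavy chain loci, and no lower cut was tried. At alpha and delta, the 3 narrow regions outside the run were each exactly 150 bp wide, as were some in the run. The share there thus depends on regions at the cut itself, and whether it differs from the list was not tested.

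The variable part of the alpha and delta locus was thinly covered beside its constant end, though denser than 29.9% of the list's windows of its length. It held 13 regions in 1.6 Mb, of which 5 lay within 9.93 kb (chr14:54414279-54424204), 476 to 486 kb from the constant edge. The closest pair of the locus, 84 bp apart, was in this group. The 3 longest gaps were 479 kb (chr14:53242143-53721144), 444 kb (chr14:53721306-54165262) and 241 kb (chr14:54173270-54414278). Only a single region, chr14:53721145-53721305, separated the first and the second of these gaps. Mappability among the V segments of this locus was not tested, so the low density may not mean closed chromatin. The region nearest the far edge was chr14:53047424-53047573.

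**Figure D5:**
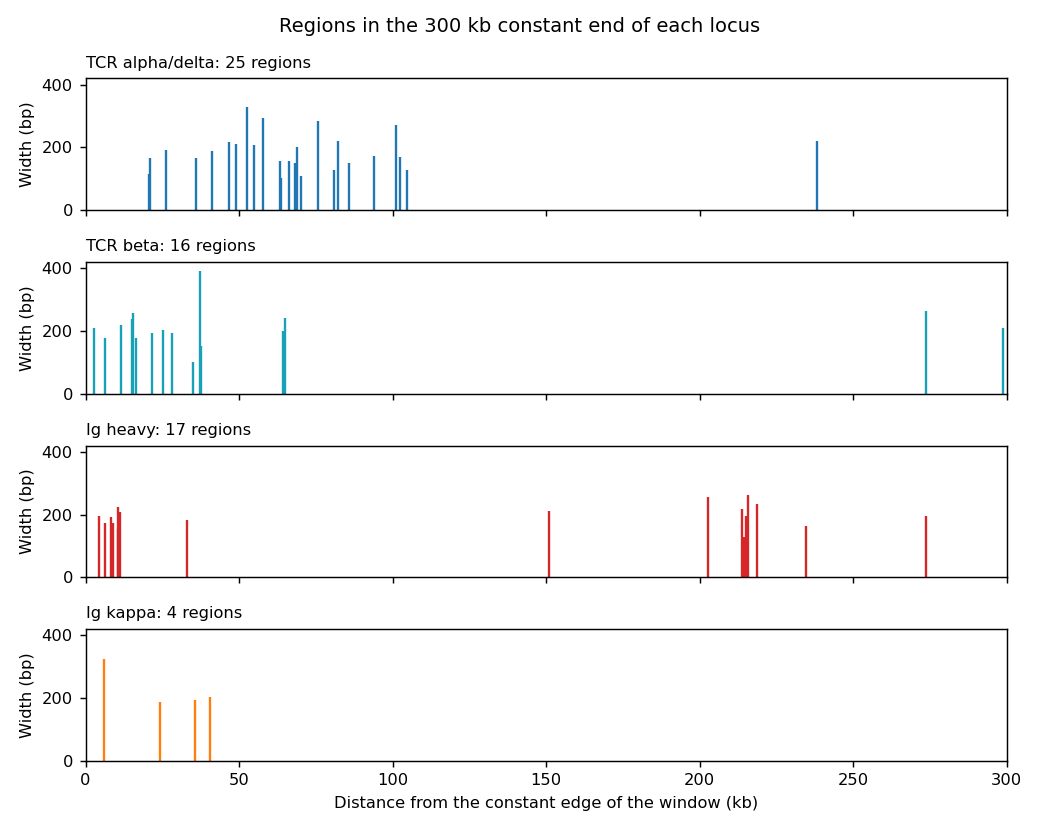
Regions of the 300 kb constant end of each locus by distance in kb from the constant edge (horizontal axis), with region width in bp as line height (vertical axis). All alpha and delta regions but 1, at 238 kb, lie between 20.7 and 105 kb, the beta regions fall within 65 kb of the edge apart from 2, the heavy chain regions form a group at the edge and a second beyond 200 kb, and kappa has 4.

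At the beta locus the regions fell into 2 blocks with 208 kb between them. The block beside the constant edge held 14 regions in 62.3 kb (chr6:41454980-41517264), and the block on the variable side 42 regions in 417 kb (chr6:40830002-41246519). The stretch between them, chr6:41246520-41454979, had none and was the longest gap of the locus. In gene order 13 protein-coding genes lie among the beta segments, including Prss1, Prss2, Prss3, Try4, Try5 and Try10 of the trypsin family of digestive enzymes. Their positions on mm9 were not compared with the gap. The other long gaps were 121 kb (chr6:40843831-40965162) and 44.8 kb (chr6:41168127-41212937).

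The constant block had 12 regions in 35.1 kb at the edge and a pair further in. Linking stopped at the window edge, so these 12 may belong to a longer run. The 100 kb beside the edge had 140 regions per Mb (95% interval 76.5 to 235), 2.07 times the density of the rest of the window and more than 95.0% of the list's 100 kb bins. From the edge inward, the first 6 regions were chr6:41517057-41517264, chr6:41513412-41513588, chr6:41508384-41508601, chr6:41504825-41505062, chr6:41504381-41504636 and chr6:41503420-41503598. The next 6 were chr6:41498400-41498591, chr6:41494638-41494841, chr6:41491762-41491954, chr6:41484875-41484974, chr6:41482583-41482974 and chr6:41482215-41482367. The pair was chr6:41455440-41455638 and chr6:41454980-41455221. This end holds, in gene order, the D and J segments with Trbc1 and Trbc2, then Trbv31 and the gene Ephb6. Whether the constant block lies wholly among the beta segments was not examined. The 2 other regions of the constant end, chr6:41246256-41246519 and chr6:41221283-41221493, lay beyond the gap and belong to the variable block.

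Taken as a whole, the window outside the constant end was denser at beta, with 95.2 regions per Mb, than at any other of the 4 loci. Its 40 regions there all belong to the variable block, which has 42. The largest run of the variable block had 14 regions in 40.9 kb (chr6:41127212-41168126), a size reached by 569 of the list's 14351 runs (3.96%). Further runs had 8 regions in 17.8 kb (chr6:41054146-41071977), 6 in 16.4 kb (chr6:40996661-41013077) and 4 in 15.4 kb (chr6:41087081-41102472). At the far edge, 3 regions lay in 13.8 kb (chr6:40830002-40843830). Of the 56 regions of the locus, 55 were in runs, and the runs of the variable side were separate groups with up to 121 kb between neighbours.

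The widest members were at this locus. A 392 bp region in the variable block (chr6:40997950-40998341) and a 392 bp region in the constant block (chr6:41482583-41482974) shared the highest width of all 150 members, and chr6:40975890-40976236, at 347 bp, was the third of the locus. Over all members the median width was 191.5 bp, next to 191 bp in the list. By locus it was 176 bp at the alpha and delta locus, 193.5 bp at beta, 189 bp at the heavy chain and 197 bp at kappa.

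The heavy chain locus was open at its constant end in 2 separate groups. The first had 7 regions in 7.03 kb beside the window edge. Regions outside the window were not linked, so this group may continue past the edge. Its 7 regions were chr12:114454227-114454422, chr12:114456204-114456375, chr12:114458106-114458298, chr12:114458829-114459000, chr12:114460348-114460572, chr12:114460617-114460769 and chr12:114461049-114461255. The gap of 44 bp between the fifth and the sixth was the smallest in the 4 loci. Among the heavy chain constant genes, Ighm and Ighd lie nearest the J segments in gene order, Igha lies farthest out, and the next protein-coding gene beyond is Tmem121. Whether the first group lies inside the Ig genes or beyond Igha was not examined.

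The second group had 6 regions in 16.2 kb, 203 to 219 kb from the edge. They were chr12:114652718-114652974, chr12:114663586-114663801, chr12:114664202-114664329, chr12:114664999-114665194, chr12:114665593-114665855 and chr12:114668648-114668880. The region of 263 bp at 216 kb was the third widest of the locus. Only 2 regions lay between the groups, chr12:114483004-114483187 and chr12:114600675-114600884, and 2 followed the second group, chr12:114684402-114684565 and chr12:114723420-114723613. The longest gap of the locus, 509 kb (chr12:114723614-115232470), began there.

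The variable part of the heavy chain locus was sparser than its constant end, though denser than 30.8% of the list's windows of its length. Its 33 regions fell in 15 different 100 kb bins, none with more than 5, and the first of them lay 783 kb from the constant edge. The largest run had 5 regions in 33.1 kb (chr12:116229205-116262282). Its last region, chr12:116261943-116262282 (340 bp), and chr12:116496062-116496411 (350 bp) were the widest of the locus. After the gap at the constant end, the longest gaps were 288 kb (chr12:116642687-116930192) and 281 kb (chr12:115888932-116170426).

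The outermost 150 kb of the heavy chain window held 8 of those 33 regions, up to chr12:117294674-117294823 at 5.25 kb from the far edge. In gene order the last V segment is followed by Zfp386 and Vipr2. Whether these regions lie among V segments or beyond them was not examined. In all, the heavy chain locus had 19 regions that were not linked to another member and 8 runs of 2 or more, whereas the beta locus had 1 such single region and 9 runs.

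At the kappa locus all 6 regions can be named. The 4 of the constant end were chr6:70693964-70694288 (325 bp, 5.87 kb from the edge), chr6:70675672-70675859 (188 bp, 24.2 kb), chr6:70664382-70664575 (194 bp, 35.5 kb) and chr6:70659428-70659630 (203 bp, 40.5 kb). The last 3 formed a run of 16.4 kb. Igkc and the kappa J segments lie at this end in gene order, and the next protein-coding gene beyond is Rpia. Which of the 4 regions lies on either side of Igkc was not examined.

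The kappa variable part had 2 regions in 2.9 Mb, or 0.690 per Mb (95% interval 0.0835 to 2.49). They were chr6:70053229-70053415 (187 bp) and chr6:68151563-68151762 (200 bp). The gap between them, chr6:68151763-70053228, measured 1901 kb, and the one toward the constant end, chr6:70053416-70659427, measured 606 kb. From the far edge inward, 652 kb passed before the first region. An empty stretch shows only that no region was called there, and mappability among the similar V segments was not tested.

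A neighbour less than 500 bp away was present for 30 of 94 regions at the T cell receptor loci (31.9%) and for 7 of 56 at the Ig loci (12.5%), against 38.7% of the list. By locus the share was 35.7% at beta (20 of 56), 26.3% at alpha and delta (10 of 38), 14% at the heavy chain (7 of 50) and 0 of 6 at kappa. A neighbour less than 12.5 kb away was present for 55 of 56 beta regions (98.2%), 31 of 38 alpha and delta regions (81.6%), 31 of 50 heavy chain regions (62.0%) and 3 of 6 kappa regions, against 87.1% of the list. A locus with fewer regions per Mb has fewer close pairs by its density alone, and this was not tested apart from density.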

How the data were processed

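The deposited file lists the start and end positions of open chromatin regions in base pairs on mm9, with no score, signal or sample column, per the file header. Tools listed in the submitters' processing notes are Bowtie2 2.2.4, HOMER 4.6, Picard 1.130, SAMtools 1.3 and cutadapt 1.8.3, with mm9 as the build. What each did, the calling threshold and how samples were combined, which decide what is on the list, were not given in the sources used here. Per the labels' protocols, 10000 sorted cells were transposed for 60 min at 37 °C.

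Regions overlapping a window by 1 base or more were members, and positions are printed 1-based. Counts, densities and gaps were computed with Python 3.11.15, pandas 2.3.3, NumPy 2.4.6 and SciPy 1.17.1. Comparison windows and bins were laid from the first region of each chromosome and counted by region centre. Counting in windows and constant ends, merging, and the laying of comparison windows were tested on 50 simulated lists, and all were recovered. Gaps, runs and V segment counts were not tested in this way. Members, windows and named items were chosen with earlier results of these data known. The regions named were those of each constant end (10 of the densest bin where it held over 20), the kappa variable regions, the 3 widest, the 3 longest gaps and those nearest the edges; groups were named after their positions were seen. No promoter entry for the 6 named genes was in the RefSeq table, and no mm9 sequence was used.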

Additional observations from a re-analysis of the deposited data

How the results depend on the processing

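No paired analysis was possible because regions carry no values for single samples, which also prevents leaving out a replicate. The T cell receptor loci's share of members stayed within its interval in all 7 alternatives, from 58.7% (merging within 1000 bp) to 65.2% (far edges trimmed by 150 kb, chosen after seeing the data). The beta locus turned from a deficit to an excess at its constant end when that end was 100 kb or 10% of the window (25.0% of regions in both, on 13.9% and 10% of the length), and trimming 50 kb from both window edges left 14.6%. The same trimming left 0% at the kappa constant end and 0.645 regions per Mb, since its 4 regions lie within 50 kb of the edge. At the heavy chain locus the constant share was 16% with 100 kb (3.51% of the length), 18.0% with 200 kb (7.02%) and 52.0% with 50% of the window, so the excess was present at the shorter lengths and close to none at 50%. With 50% of the window, alpha and delta had 89.5%. Keeping regions of median width or more gave 7.89 regions per Mb at alpha and delta, 45.8 at beta and 8.77 at the heavy chain, by construction, and merging within 1000 bp gave 54.2 at beta. Empty bins made up 61.4% (50 kb) and 14.3% (200 kb) at the heavy chain and 0% (200 kb) at beta, against 62.6% and 44.3% of the list's bins of 50 and 200 kb. The other 55 of 71 values stayed within the interval of the value reported. Shares of regions among them also stayed on its side of the share of length, a check not made for densities and empty bins. At alpha and delta, 68.4% of 50 kb bins were empty against 62.6% of the list's, whereas with 100 kb bins it was 47.4% against 53.3%. Depth is unknown, so no limit of detection can be given.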
